A study of Homo sapiens with 9 samples.

Results

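Actin dynamics rest on proteins that start, elongate, cap, cut, bundle and anchor actin filaments or hold the actin monomer. Genes for 46 of these proteins, of 58174 genes in the deposited tables, were taken by gene symbol from a list of nucleation, capping, severing, crosslinking and monomer-binding genes. The Arp2/3 complex starts branched filaments and is switched on by proteins of the WASP and WAVE family, while formins and Ena/VASP proteins extend unbranched filaments at their growing end. Capping protein closes that end, cofilins cut and shorten filaments, and profilins, thymosins and cyclase-associated protein handle the monomer. Serum response factor (SRF) is a transcription factor whose coactivators of the myocardin family bind actin monomers, and many of its known targets encode actin and actin-binding proteins.

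RNA was from ES-2, an established line derived from ovarian cancer, harvested 72 h after transfection with control siRNA (siC), with siRNAs directed against IGF2BP1 (siIGF2BP1) or with siRNAs directed against SRF (siSRF), in 3 libraries per condition. IGF2BP1 is an RNA-binding protein that protects target mRNAs from decay. Both knockdowns used pools of siRNAs, are transient and leave part of the target, and the siC libraries serve as control for both. The labels do not say whether the replicates came from separate cultures, so p-values measure the spread between these libraries, which may be technical. Between 6421764 and 9416175 reads per library fell on genes, of which the members took 1.197% to 1.35%. A member had from 47 to 13404 reads in a library. Vimentin was at 837 to 1065 FPKM (fragments scaled by gene length and library depth), KRT8 at 8.54 to 13.8 FPKM and KRT18 at 34.1 to 84.7 FPKM. Of the immune markers, PTPRC and CD3E were at 0 in the 9 libraries and CD14 reached 0.945 FPKM, with means of 0.106 in siC, 0.539 in siIGF2BP1 and 0.0821 in siSRF. The epithelial markers EPCAM, CDH1 and KRT19 were at or below 0.259 FPKM, and the endothelial marker CDH5 was present at 7.53 to 16.1 FPKM while PECAM1 and VWF were at or below 0.387 FPKM. On average KRT18 was at 43.4 FPKM in siC, 41.8 in siIGF2BP1 and 81.7 in siSRF, KRT8 at 8.81, 12.9 and 10.1 FPKM, and CDH5 at 9.38, 15.2 and 7.93 FPKM. The mesenchymal markers differed in direction. Fibronectin (FN1) was at 8.25, 4.70 and 3.15 FPKM, vimentin at 1055, 883 and 853 FPKM, and CDH2 at 25.4, 40.1 and 29.8 FPKM. Their part in the results was not tested. In bulk RNA, fewer cells of a type and less RNA per cell cannot be told apart.

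The depletions were checked first. The IGF2BP1 mRNA was at 12.8, 13.5 and 12.1 FPKM in siC, 4.18, 4.14 and 4.02 FPKM in siIGF2BP1 and 13.7, 14.6 and 14.3 FPKM in siSRF. It fell in siIGF2BP1 by a log2 difference of -1.61 (SE 0.067, adjusted p = 0.000141) and was at 0.15 in siSRF, which did not pass the test (adjusted p = 0.119). SRF was at 13.6, 14.1 and 15.99 FPKM in siC, 5.80, 5.42 and 6.80 FPKM in siIGF2BP1 and 1.63, 1.36 and 1.42 FPKM in siSRF. Its log2 difference was -3.22 (SE 0.107, adjusted p = 6.07e-05) upon SRF depletion and -1.26 (SE 0.107, adjusted p = 0.00111) upon IGF2BP1 depletion, so the siIGF2BP1 cells also held less SRF mRNA, 0.416 of the control level against 0.107 in siSRF. Log2 differences are throughout those of log2(FPKM + 0.1), which understates the change of low genes. Genes are called at an adjusted p of at most 0.01 by limma-trend over all genes tested, and "called" without another tool named means this fit. Where all 3 libraries of a condition lie on one side of those of the other, the two-sided exact permutation test gives p = 0.1, the smallest that 3 libraries against 3 allow.

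In control cells the members spanned 3 orders of FPKM, a unit per gene length that allows genes to be compared. TMSB10, a thymosin that binds the actin monomer, was the highest at 1444 FPKM, and gelsolin (GSN), which cuts and caps filaments, was the lowest at 1.19 FPKM. PFN1, CFL1 and TMSB4X followed TMSB10 at 217, 191 and 172 FPKM. The siC ranges of PFN1 (204 to 227) and CFL1 (182 to 198) did not overlap, nor did those of CFL1 and TMSB4X (168 to 176). The 4 most abundant members thus handle monomers or turn filaments over, while the Arp2/3 activators WASL and WASF1 were at 5.37 and 5.69 FPKM.

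**Figure D1:**
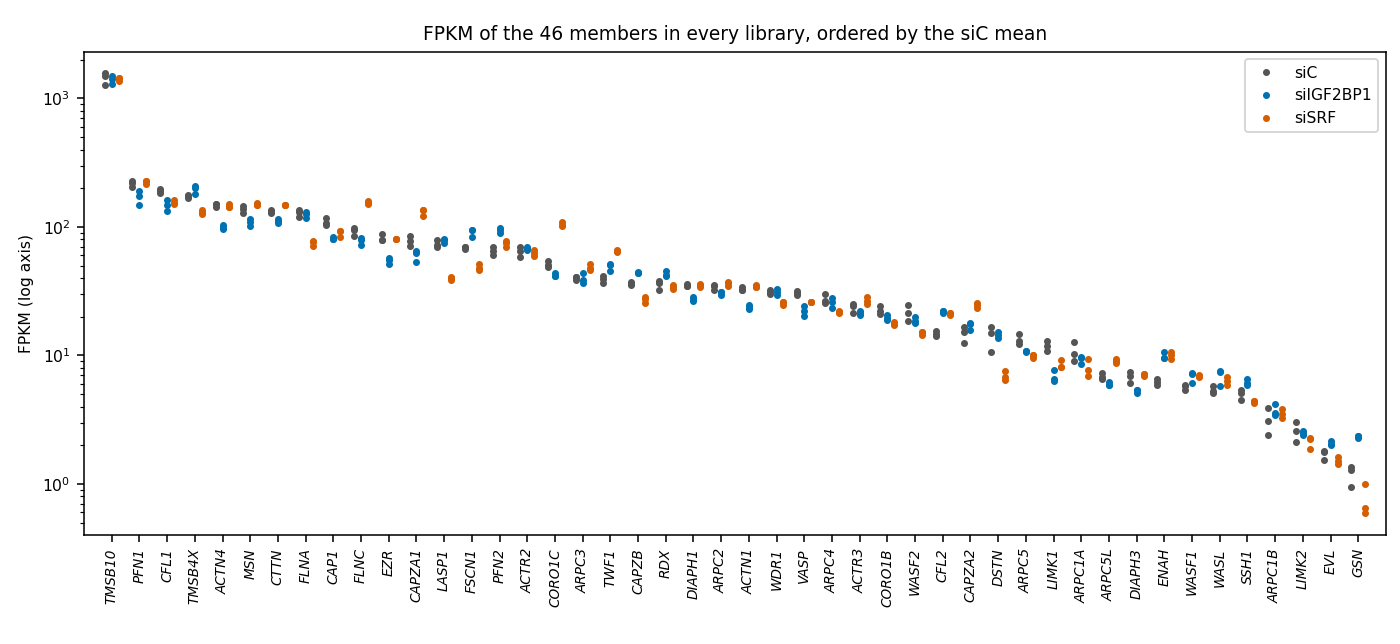
FPKM on a log axis of the 46 members in each of the 9 libraries, ordered from left to right by the mean of the 3 siC libraries, with siC in grey, siIGF2BP1 in blue and siSRF in orange. Levels run from 1444 FPKM for TMSB10 to 1.19 FPKM for GSN in siC, and the colours separate most widely for members such as CORO1C, CAPZA1, DSTN and GSN.

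Both depletions moved members in both directions. All 46 members passed the filter on low values in each comparison, and 33 were called in at least 1 of them. Upon IGF2BP1 depletion 7 of the 46 fell, which is 15.2% beside 5.91% of all protein-coding genes tested, and 5 rose, 10.9% beside 5.52%. Upon SRF depletion 8 fell, 17.4% beside 8.67%, and 8 rose, 17.4% beside 11.1%. The direct comparison of siIGF2BP1 with siSRF, which uses no siC library, called 15 members lower in siIGF2BP1, 32.6% beside 18.3%, and 12 higher, 26.1% beside 13.7%. The median log2 difference of the members was -0.06 in siIGF2BP1 and -0.02 in siSRF, beside -0.01 and 0.02 over all protein-coding genes. Their median absolute log2 difference was 0.27 and 0.29, beside 0.25 and 0.30. The background takes in genes from a mean of 0.1 FPKM up, while the lowest member was at 1.19 FPKM in siC. The shares called are thus not matched for level, and the part of level in them was not tested. The members were also chosen with earlier results of these data known.

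Of the members, 4 were called upon both depletions. The share of all protein-coding genes called in both, or in at least 1 comparison, is not given here. ENAH and CFL2 rose in both, and FSCN1 and CAPZB rose in siIGF2BP1 but fell in siSRF. By limma-voom these 4 passed in both, as did ARPC5, CAP1, CAPZA1, CFL1, CORO1C, CTTN, FLNC, GSN, LIMK1 and TWF1. These counts depend on the fit and on single libraries. With limma-voom on the reads, 16 members were lower and 9 higher in siIGF2BP1 (background 14.3% and 13.7%), 15 lower and 10 higher in siSRF (17.5% and 20.9%), and 19 lower and 14 higher in the direct comparison (26.6% and 22.6%). Leaving out any 1 of the 6 libraries left 1 to 3 lower and 0 to 2 higher members in siIGF2BP1, 3 to 6 lower and 3 to 7 higher in siSRF, and 11 to 13 lower and 6 to 9 higher in the direct comparison. Those fits use fewer libraries for every gene, and the share of all protein-coding genes called in them is not given here. Their counts thus do not set the members apart from all genes. None of the called values changed sign in any of the fits.

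**Figure D2:**
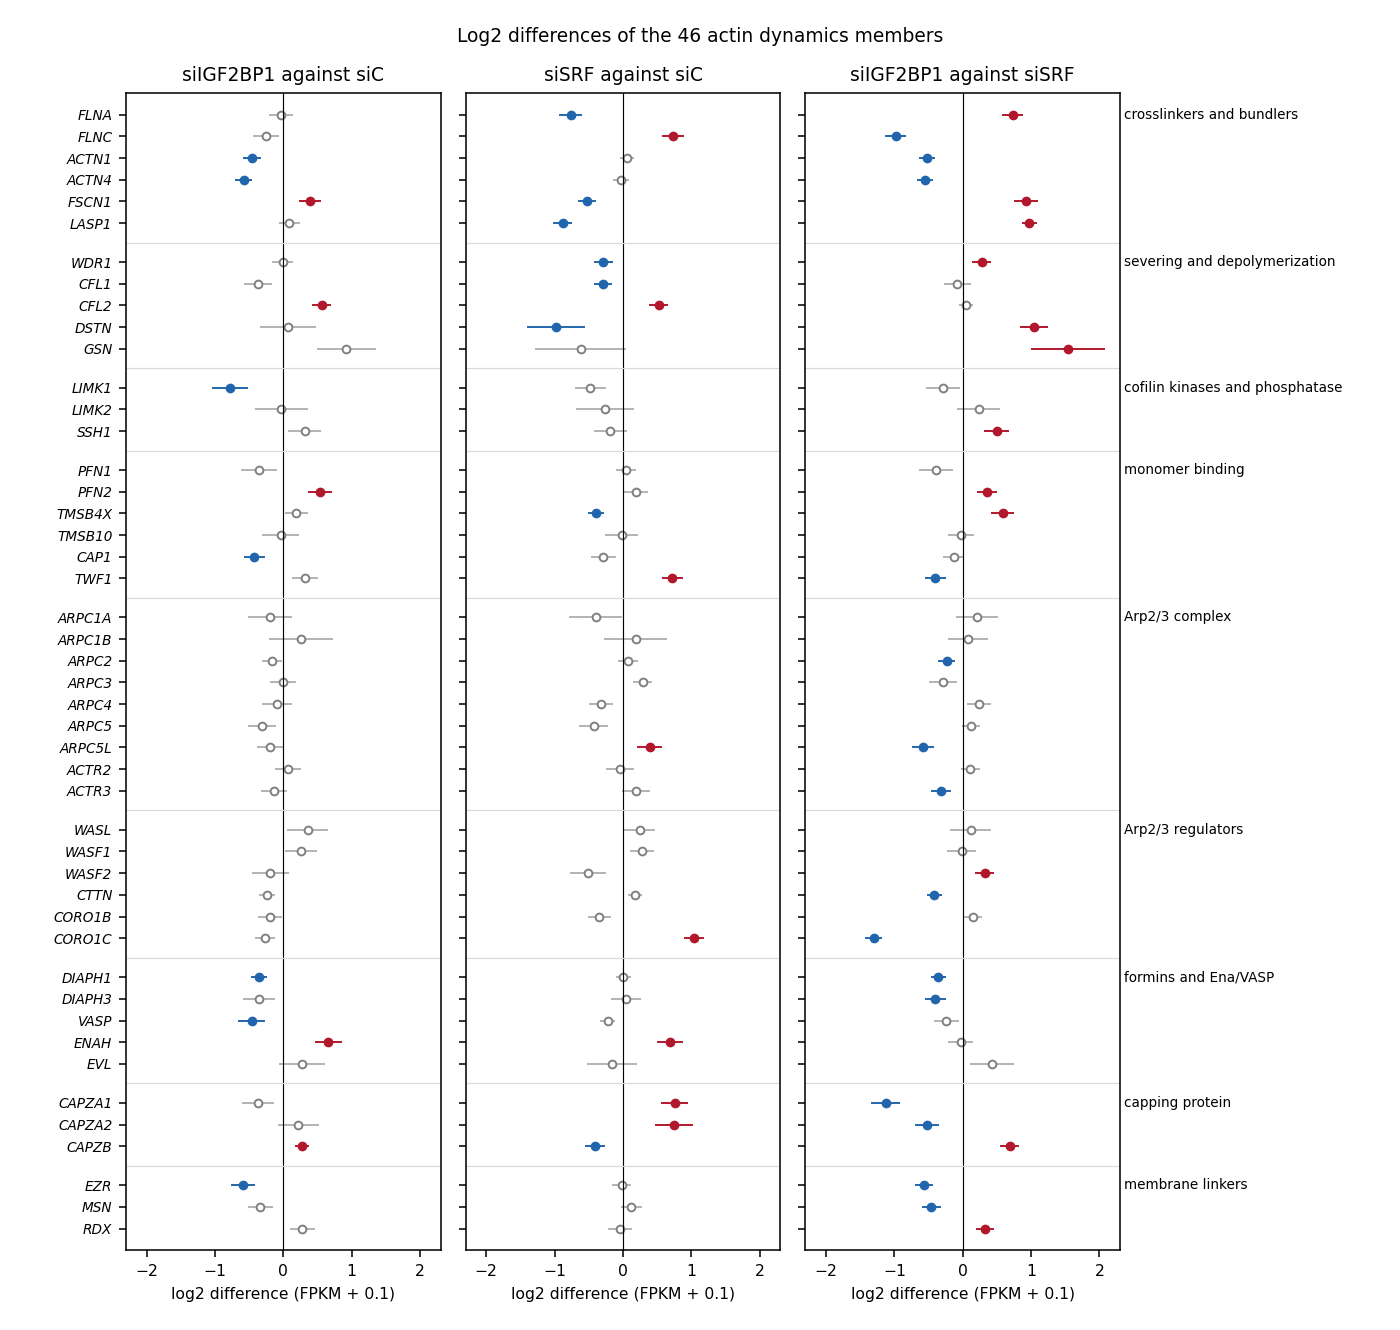
Log2 difference of each of the 46 members (points) with its 95% confidence interval (lines) in the 3 comparisons, with members grouped by role from top to bottom. Filled points passed the test (red for higher, blue for lower in the condition named first) and open points did not. The values run from -0.78 to 0.92 in siIGF2BP1 against siC, from -0.98 to 1.03 in siSRF against siC, and from -1.30 to 1.54 in siIGF2BP1 against siSRF.

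SRF binds DNA at the CArG box, a motif of 10 base pairs, so promoter windows of the members were searched for it on both strands. Windows of 300 bases around RefSeq starts (GRCh38.p14, 250 bases before and 50 after) were held for 41 members, and ARPC1B, CTTN, FSCN1, PFN2 and WASF2 had no entry. A gene counted if any of its windows matched. The 41 members had 64 windows, and all 27305 genes had 35116. Members thus had more windows per gene, which can raise their shares, and the shares were not adjusted for it. The consensus was present for FLNA and ACTN1, 4.88% of the 41 members, beside 1.6% of all 27305 genes with a window. Allowing 1 changed base, 12 members held it, 29.3% beside 22.3%. Those with a changed form alone were CAPZB, CAP1, ACTR2, WDR1, WASF1, GSN, ARPC3, CFL2, ACTN4 and VASP. A match in these letters is a description and does not show that SRF binds there. Of the members called lower in siSRF, FLNA, CAPZB and WDR1 held a match. DSTN, LASP1, TMSB4X and CFL1 held none in their windows, and FSCN1 had no window. The sequences below show the boxes of members that moved in different directions, 5′ to 3′ on the gene's strand, with the box in capitals.
FLNA, the 250 bases before its start on the minus strand, chrX:154374635-154374884, box with the consensus from position -94 of the start: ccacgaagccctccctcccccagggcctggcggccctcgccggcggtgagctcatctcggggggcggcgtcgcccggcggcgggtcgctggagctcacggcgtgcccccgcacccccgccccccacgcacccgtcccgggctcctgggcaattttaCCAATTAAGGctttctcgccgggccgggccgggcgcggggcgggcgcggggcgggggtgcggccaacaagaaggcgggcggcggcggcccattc
ACTN1, 40 bases on the minus strand inside the annotated gene, before an internal RefSeq start, chr14:68977713-68977752, consensus box from position -171: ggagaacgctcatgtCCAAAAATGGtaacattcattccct
CAPZB, 40 bases on the minus strand, chr1:19485652-19485691, box with 1 changed base from position -137: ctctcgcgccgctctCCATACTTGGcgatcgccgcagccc
CFL2, 40 bases on the minus strand inside the annotated gene, before an internal RefSeq start, chr14:34713967-34714006, box with 1 changed base from position -196: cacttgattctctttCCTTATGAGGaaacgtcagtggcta
FLNA and CAPZB fell upon SRF depletion, CFL2 rose, and ACTN1 was at a log2 difference of 0.06 that did not pass the test (adjusted p = 0.34). In a fit freed of trends along GC content and length, ACTN1 passed in siSRF as higher, at 0.26 (adjusted p = 0.0048). An exon of a long noncoding RNA on the other strand overlaps the FLNA stretch in the annotation used here.

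Crosslinkers and bundlers tie filaments into networks and cables, and their 6 members split between the depletions. In siIGF2BP1 2 fell and 1 rose, in siSRF 3 fell and 1 rose, and in the direct comparison all 6 were called, 3 in each direction. FLNA (chrX:154348524-154374634, minus strand) encodes filamin A, a long flexible crosslinker, and was at 119, 134 and 130.3 FPKM in siC, 131, 117 and 126 FPKM in siIGF2BP1 and 70.99, 76.8 and 77.97 FPKM in siSRF. The siSRF libraries lay below all others, with a log2 difference of -0.76 (SE 0.0628, adjusted p = 0.000747) from siC, while siIGF2BP1 and siC overlapped (-0.03, adjusted p = 0.779). Filamin C, the isoform best known from muscle, is encoded by FLNC (chr7:128830406-128859274, plus strand) and was at 85.4, 98.03 and 95.5 FPKM in siC, 82.7, 72.5 and 79.4 FPKM in siIGF2BP1 and 149.9, 158 and 155 FPKM in siSRF. It rose upon SRF depletion by 0.73 (SE 0.0606, adjusted p = 0.00076), and its level in siIGF2BP1 lay below all siC libraries without passing the test (-0.25, adjusted p = 0.072). Limma-voom called it lower in siIGF2BP1 (adjusted p = 0.000362), and the fit freed of trends along GC content and length did not (-0.14, adjusted p = 0.0691). The pair thus moved apart in siSRF, and FLNC, the lower filamin in siC, became the higher one.

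The alpha-actinins ACTN1 and ACTN4 crosslink antiparallel filaments in stress fibres and adhesions. ACTN1 (chr14:68874128-68979440, minus strand) was at 32.4, 33.9 and 32.6 FPKM in siC, 23.98, 22.9 and 24.8 FPKM in siIGF2BP1 and 35.05, 33.9 and 34.1 FPKM in siSRF. ACTN4 (chr19:38647649-38731589, plus strand) was at 143, 150.5 and 152 FPKM in siC, 103, 95.6 and 100.2 FPKM in siIGF2BP1 and 144, 150.1 and 144 FPKM in siSRF. Both fell upon IGF2BP1 depletion, with log2 differences of -0.46 (SE 0.0473, adjusted p = 0.00203) and -0.58 (SE 0.0468, adjusted p = 0.000967), with no overlap of libraries. In siSRF the differences were 0.06 and -0.03 (adjusted p = 0.34 and 0.709). Without the GC and length trends they were 0.26 (adjusted p = 0.0048) and 0.20 (adjusted p = 0.0143), so ACTN1 was then called higher. The direct comparison was called for both (-0.52 and -0.55). The call of ACTN4 in siIGF2BP1 held without each library in turn, and that of ACTN1 was lost without siIGF2BP1 replicates 1 or 3 or siC replicates 1, 2 or 3 (adjusted p up to 0.0119).

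Fascin (FSCN1, chr7:5592816-5606655, plus strand) packs filaments into the straight bundles of filopodia and was at 67.5, 70.4 and 70.03 FPKM in siC, 95.2, 83.95 and 95.3 FPKM in siIGF2BP1 and 45.97, 47.5 and 51.03 FPKM in siSRF. It rose in siIGF2BP1 by 0.40 (SE 0.0606, adjusted p = 0.0079) and fell in siSRF by a log2 difference of -0.53 (SE 0.0496, adjusted p = 0.00114), and the 3 conditions did not overlap. The direct difference was 0.92 (SE 0.0662, adjusted p = 0.000182). LASP1 (chr17:38869859-38921770, plus strand), a scaffold of adhesions and crosslinked actin, was at 70.03, 72.5 and 78.8 FPKM in siC, 79.4, 75.4 and 80.6 FPKM in siIGF2BP1 and 39.9, 40.9 and 38.98 FPKM in siSRF. Its siSRF level was 0.542 of that in siC, a log2 difference of -0.88 (SE 0.0534, adjusted p = 0.000365), whereas siIGF2BP1 overlapped siC (0.09, adjusted p = 0.363). In a fit freed of trends along GC content and length, the siSRF difference was -0.48 (adjusted p = 0.000841) for FLNA, -0.27 (adjusted p = 0.00875) for FSCN1 and -0.67 (adjusted p = 0.00076) for LASP1. The call of FSCN1 in siIGF2BP1 was lost without siIGF2BP1 replicates 1 or 3 or siC replicates 1, 2 or 3 (adjusted p up to 0.037), and the siSRF calls of FLNA, FLNC, FSCN1 and LASP1 held without each library in turn.

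Among the 5 members that cut or shorten filaments, 1 rose and none fell in siIGF2BP1, while 3 fell and 1 rose in siSRF. DSTN (chr20:17570075-17609919, plus strand) encodes destrin, a relative of cofilin that strips filaments, and was at 14.98, 16.5 and 10.6 FPKM in siC, 15.3, 14.4 and 13.7 FPKM in siIGF2BP1 and 6.84, 6.44 and 7.61 FPKM in siSRF. Its siSRF libraries lay below all siC libraries, a log2 difference of -0.98 (SE 0.169, adjusted p = 0.00878), and siIGF2BP1 overlapped siC (0.06, adjusted p = 0.844). The siC libraries themselves were spread, and the siSRF call was lost without siSRF replicates 1, 2 or 3 or siC replicates 1 or 2 (adjusted p up to 0.0405), whereas the direct difference of 1.04 (SE 0.079, adjusted p = 0.000221) held without each. Cofilin 2 (CFL2, chr14:34709113-34714823, minus strand), the form best known from muscle, was at 15.6, 14.1 and 14.7 FPKM in siC, 21.98, 21.5 and 22.2 FPKM in siIGF2BP1 and 21.4, 21.6 and 20.7 FPKM in siSRF. It rose by nearly the same amount upon both depletions, 0.56 (SE 0.0525, adjusted p = 0.00151) in siIGF2BP1 and 0.52 (SE 0.0519, adjusted p = 0.00134) in siSRF, and the 2 knockdowns overlapped (direct difference 0.04, 95% confidence interval -0.05 to 0.13).

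CFL1, the main cofilin, went the other way. It was at 191 FPKM in siC, 148 in siIGF2BP1 and 156 in siSRF on average. By limma-trend only the siSRF difference passed the test (-0.29, adjusted p = 0.00679, against -0.37, adjusted p = 0.0259, in siIGF2BP1), and without the GC and length trends it was -0.08 (adjusted p = 0.257). Limma-voom called CFL1 lower in both (adjusted p = 6.56e-07 in siIGF2BP1 and 6.65e-07 in siSRF). With all 9 libraries siIGF2BP1 passed (adjusted p = 0.00693) and siSRF did not (0.0157). The knockdowns did not differ by the test (direct difference -0.078, adjusted p = 0.476). WDR1, which helps cofilin to disassemble filaments, fell by a log2 difference of -0.29 in siSRF (adjusted p = 0.00856), and this was -0.19 (adjusted p = 0.0247) without the trends. The siSRF call of CFL1 was lost without siSRF replicates 1, 2 or 3 or siC replicates 1 or 2 (adjusted p up to 0.0332), that of WDR1 was lost without any single library (adjusted p up to 0.0295), and that of CFL2 was lost without siSRF replicate 2 (adjusted p up to 0.0103). The siIGF2BP1 call of CFL2 was lost without siIGF2BP1 replicate 3 (adjusted p up to 0.0125). Without the trends the rise of CFL2 in siSRF was 0.28 (adjusted p = 0.00494).

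Gelsolin (GSN, chr9:121207794-121332843, plus strand) was at 1.28, 1.35 and 0.954 FPKM in siC, 2.27, 2.34 and 2.38 FPKM in siIGF2BP1 and 0.598, 1.01 and 0.652 FPKM in siSRF. The 3 siIGF2BP1 libraries lay above the 6 others, but by limma-trend neither knockdown passed the test against siC (0.92, adjusted p = 0.0162, and -0.62, adjusted p = 0.161). Limma-voom called GSN higher in siIGF2BP1 (0.984, adjusted p = 6.09e-07) and lower in siSRF (-0.645, adjusted p = 0.00658). The direct difference passed by limma-trend, at 1.54 (SE 0.218, adjusted p = 0.00261), and its call was lost without siIGF2BP1 replicates 1, 2 or 3 or siSRF replicate 3 (adjusted p up to 0.0148). With a pseudocount of 1 it was 0.93. The gene is the lowest of the members, and RAB14 overlaps it on the other strand, so its reads are less certain if counting did not use strand, which is not given in the sources used here.

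Upstream of cofilin, LIM kinases switch it off by phosphorylation and slingshot phosphatases switch it on. LIMK1 (chr7:74082933-74122525, plus strand) was at 12.9, 11.8 and 10.8 FPKM in siC, 7.71, 6.59 and 6.31 FPKM in siIGF2BP1 and 8.08, 8.06 and 9.14 FPKM in siSRF. The siC libraries were the highest in this gene, and siIGF2BP1 fell by a log2 difference of -0.78 (SE 0.103, adjusted p = 0.00495). In siSRF the difference was -0.48, just outside the threshold (adjusted p = 0.0106), and the direct difference did not pass (-0.29, adjusted p = 0.0641). Its call in siIGF2BP1 was lost without siIGF2BP1 replicates 2 or 3 or siC replicates 1, 2 or 3 (adjusted p up to 0.0246). LIMK2 was at 2.58, 2.50 and 2.12 FPKM on average, with no call in any comparison. The phosphatase gene SSH1 averaged 4.98 FPKM in siC, 6.20 in siIGF2BP1 and 4.36 in siSRF. By limma-trend it was called only in the direct comparison (0.50, adjusted p = 0.0024). That call was lost without siIGF2BP1 replicate 3 or siSRF replicates 1, 2 or 3 (adjusted p up to 0.012). Limma-voom also called SSH1 higher in siIGF2BP1 than in siC (0.318, adjusted p = 0.00351).

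Of the 6 members that handle the actin monomer or its exchange, 1 fell and 1 rose upon each depletion, and these were 4 different genes. Thymosin beta 4 (TMSB4X, chrX:12975110-12977227, plus strand) sequesters monomers and was at 173, 176 and 168 FPKM in siC, 209, 180.3 and 203 FPKM in siIGF2BP1 and 131, 136 and 127 FPKM in siSRF. It fell in siSRF by a log2 difference of -0.39 (SE 0.0429, adjusted p = 0.00176), with siSRF below and siIGF2BP1 above every siC library. The 6 pseudogenes named after it held reads that came to 6.95% of its own, and reads could be split among such copies. TMSB10 was at 1444, 1402 and 1422 FPKM with overlapping libraries. Profilin 2 (PFN2, chr3:149964904-150050788, minus strand), the less abundant of the profilins that feed monomers to growing ends, was at 69.9, 60.5 and 64.6 FPKM in siC, 89.97, 95.04 and 98.4 FPKM in siIGF2BP1 and 77.2, 75.6 and 69.7 FPKM in siSRF. It rose upon IGF2BP1 depletion by 0.54 (SE 0.0656, adjusted p = 0.00371) and overlapped siC in siSRF (0.19, adjusted p = 0.0968). PFN1 averaged 217, 171 and 224 FPKM and was not called by limma-trend, while limma-voom called it lower in siIGF2BP1 (adjusted p = 8.05e-05).

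TWF1 (chr12:43793723-43806328, minus strand) encodes twinfilin 1, which binds monomers and capping protein, and was at 39.6, 36.5 and 41.9 FPKM in siC, 45.2, 50.6 and 51.7 FPKM in siIGF2BP1 and 66.2, 64.5 and 63.6 FPKM in siSRF. It rose in siSRF to 1.65 times the siC level, a log2 difference of 0.72 (SE 0.0569, adjusted p = 0.00068), and siIGF2BP1 lay between (0.32, adjusted p = 0.0336). CAP1, which recycles monomers from cofilin, averaged 109.5 FPKM in siC and 81.6 in siIGF2BP1 and fell by a log2 difference of -0.42 (adjusted p = 0.00508). In siSRF it averaged 89.6 FPKM without passing (-0.29, adjusted p = 0.0265). The call of TMSB4X was lost without siSRF replicate 1 (adjusted p up to 0.012), that of PFN2 was lost without siIGF2BP1 replicates 1, 2 or 3 or siC replicates 2 or 3 (adjusted p up to 0.0216), that of CAP1 was lost without any single library (adjusted p up to 0.025), and that of TWF1 held without each library in turn.

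Of the 9 genes of the Arp2/3 complex, limma-trend called 0 upon IGF2BP1 depletion, beside 5.91% lower and 5.52% higher of all protein-coding genes. It called 1 higher in siSRF, beside 11.1%, and 3 lower in the direct comparison, beside 18.3%. With so few genes, these counts do not set the complex apart from all genes. In siIGF2BP1 the log2 differences ran from -0.31 to 0.26, and limma-voom called ARPC5 lower (adjusted p = 0.00151). In siSRF limma-trend called ARPC5L alone, as higher, and the values ran from -0.43 to 0.39. Limma-voom also called ARPC3 higher there (adjusted p = 0.0008) and ARPC4 and ARPC5 lower (0.000759 and 9.72e-06). The summed FPKM of the 9 genes was 224 ± 11.5 (SD, n = 3) in siC, 215 ± 7.11 in siIGF2BP1 and 226 ± 5.91 in siSRF. ARPC5L (chr9:124862130-124877733, plus strand), the alternative form of the smallest subunit, was at 6.75, 7.30 and 6.55 FPKM in siC, 5.92, 6.19 and 5.85 FPKM in siIGF2BP1 and 9.36, 9.03 and 8.68 FPKM in siSRF. The siSRF libraries were the highest, with a log2 difference of 0.39 (SE 0.0676, adjusted p = 0.00896) from siC, and the siIGF2BP1 libraries the lowest, with a direct difference of -0.58 (SE 0.0582, adjusted p = 0.000634). Its partner form ARPC5 averaged 13.4 FPKM in siC and 9.87 in siSRF, outside the threshold (-0.43, adjusted p = 0.0111). ACTR3 and ARPC2 were called lower in siIGF2BP1 than in siSRF (-0.32 and -0.24). The call of ACTR3 was lost without siIGF2BP1 replicates 1, 2 or 3 or siSRF replicates 1 or 3 (adjusted p up to 0.0215) and that of ARPC2 was lost without any single library (adjusted p up to 0.038), without the filter on low values and after median-ratio rescaling. The siSRF call of ARPC5L was lost without any single library (adjusted p up to 0.0399), without the filter on low values and after median-ratio rescaling. The ARPC4 and ARPC1B genes overlap other transcribed genes, so their reads are uncertain.

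Of the members, 6 regulate the complex, and CORO1C stood out among them. It encodes coronin 1C, of a family that removes Arp2/3 from branches (chr12:108645109-108731526, minus strand), and was at 50.4, 48.9 and 54.4 FPKM in siC, 41.6, 41.6 and 44.03 FPKM in siIGF2BP1 and 109, 104 and 102 FPKM in siSRF. The siSRF libraries held 2.05 times the siC level, a log2 difference of 1.03 (SE 0.0538, adjusted p = 0.000259), the largest rise among the members upon either depletion. In siIGF2BP1 all 3 libraries lay below siC, without passing the test by limma-trend (-0.27, adjusted p = 0.0199). CORO1C was called lower there by limma-voom (adjusted p = 0.000512), without the GC and length trends (0.00877) and with all 9 libraries (0.00608). The direct difference was -1.30 (SE 0.0428, adjusted p = 1.49e-05). Its siSRF call held without each library in turn. Limma-trend called no other regulator against siC. Limma-voom called CTTN lower in siIGF2BP1 (adjusted p = 9.37e-05) and higher in siSRF (0.000492), and WASF2 and CORO1B lower in siSRF (4.37e-06 and 0.000229). Cortactin (CTTN), which stabilizes branches, averaged 132, 112 and 148 FPKM and was called in the direct comparison (-0.41, adjusted p = 0.000442). Its siSRF difference was 0.17 (adjusted p = 0.0144), and 0.35 (adjusted p = 0.000705) without the GC and length trends. WASF2, a WAVE protein, averaged 21.5, 18.7 and 14.9 FPKM and was called higher in siIGF2BP1 than in siSRF (0.32, adjusted p = 0.0046). This call was lost without siIGF2BP1 replicates 1 or 3 or siSRF replicates 1, 2 or 3 (adjusted p up to 0.0221) and with all 9 libraries in one fit. WASL, WASF1 and CORO1B were not called by limma-trend on 6 libraries, with log2 differences from -0.34 (CORO1B in siSRF) to 0.36 (WASL in siIGF2BP1). CORO1B in siSRF passed after median-ratio rescaling and with all 9 libraries, and without the trends it was -0.08 (adjusted p = 0.168).

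Formins and Ena/VASP proteins lengthen filaments, and 2 of these 5 members fell and 1 rose upon IGF2BP1 depletion. ENAH (chr1:225486765-225653142, minus strand), also named Mena, was at 6.53, 5.87 and 6.26 FPKM in siC, 9.55, 10.6 and 9.46 FPKM in siIGF2BP1 and 10.7, 10.1 and 9.46 FPKM in siSRF. It rose upon both depletions, by 0.66 (SE 0.0758, adjusted p = 0.00312) in siIGF2BP1 and 0.69 (SE 0.0739, adjusted p = 0.00166) in siSRF, and both sets of libraries lay above siC and overlapped each other (direct difference -0.03, 95% confidence interval -0.20 to 0.14). Its relative VASP averaged 30.5, 22.2 and 26.1 FPKM and fell in siIGF2BP1 by a log2 difference of -0.46 (adjusted p = 0.00999), at the very edge of the threshold. With a pseudocount of 1 or 0.01 or without the filter on low values VASP was no longer called. DIAPH1, a formin, averaged 35.3, 27.6 and 35.4 FPKM and fell in siIGF2BP1 (-0.35, adjusted p = 0.00401). DIAPH3 was called only in the direct comparison (-0.40, adjusted p = 0.00298), a call that was lost without siIGF2BP1 replicates 1 or 3 or siSRF replicates 1, 2 or 3 (adjusted p up to 0.0163), and EVL was not called. Limma-voom called DIAPH3 lower in siIGF2BP1 (adjusted p = 0.00436) and EVL higher in siIGF2BP1 than in siSRF (0.00194). The call of ENAH in siIGF2BP1 was lost without any single library (adjusted p up to 0.0165), and in siSRF it was lost without siSRF replicate 2 (adjusted p up to 0.0121). Those of VASP and DIAPH1 were likewise lost without any single library, with adjusted p up to 0.0385 and 0.0235.

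Capping protein is a heterodimer of an alpha subunit, from CAPZA1 or CAPZA2, and a beta subunit from CAPZB, and its genes moved in opposite directions. CAPZA1 (chr1:112619805-112671616, plus strand) was at 77.4, 71.5 and 84.7 FPKM in siC, 53.8, 62.6 and 64.4 FPKM in siIGF2BP1 and 137, 134 and 123 FPKM in siSRF. CAPZA2 (chr7:116811070-116922049, plus strand) was at 15.1, 12.4 and 16.7 FPKM in siC, 15.7, 17.6 and 17.99 FPKM in siIGF2BP1 and 25.5, 24.8 and 23.5 FPKM in siSRF. Both rose upon SRF depletion, by 0.76 (SE 0.0753, adjusted p = 0.00134) and 0.74 (SE 0.109, adjusted p = 0.00487), and the siSRF libraries lay above all others. CAPZB (chr1:19338775-19485539, minus strand) was at 36.02, 35.6 and 37.02 FPKM in siC, 43.6, 44.2 and 43.5 FPKM in siIGF2BP1 and 27.6, 28.7 and 25.4 FPKM in siSRF, and the 3 conditions were fully separate. It fell in siSRF by a log2 difference of -0.41 (SE 0.0548, adjusted p = 0.00345) and rose in siIGF2BP1 by 0.27 (SE 0.0371, adjusted p = 0.00533). Genes that overlap CAPZB on the other strand, MICOS10 among them, held 143 reads on average beside its 870. Its reads are thus less certain if counting did not use strand.

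The ratio of the summed FPKM of both alpha genes to that of CAPZB, computed after these values were seen and given without a test, was 2.55 ± 0.193 (SD, n = 3) in siC. It was 1.77 ± 0.155 in siIGF2BP1 and 5.73 ± 0.169 in siSRF. The siIGF2BP1 values of CAPZA1 (-0.37, adjusted p = 0.0423) and CAPZA2 (0.22, adjusted p = 0.274) did not pass the test by limma-trend. CAPZA1 was called lower there by limma-voom (adjusted p = 5.2e-05) and without the GC and length trends (-0.44, adjusted p = 0.00883). Against each other, the knockdowns differed by 0.69 (SE 0.0513, adjusted p = 0.000212) for CAPZB and -1.12 (SE 0.0804, adjusted p = 0.000179) for CAPZA1. The siSRF call of CAPZA1 was lost without siSRF replicate 2 (adjusted p up to 0.0102), that of CAPZA2 was lost without siSRF replicates 1, 2 or 3 or siC replicate 1 (adjusted p up to 0.0258), and that of CAPZB was lost without siSRF replicates 1 or 2 or siC replicates 1, 2 or 3 (adjusted p up to 0.017). In siIGF2BP1 the call of CAPZB was lost without any single library (adjusted p up to 0.0283).

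Ezrin, moesin and radixin anchor filaments to the plasma membrane. EZR (chr6:158765741-158819368, minus strand) was at 78.9, 79.4 and 88.1 FPKM in siC, 57.7, 51.4 and 54.9 FPKM in siIGF2BP1 and 80.98, 80.98 and 81.05 FPKM in siSRF. It fell upon IGF2BP1 depletion by a log2 difference of -0.59 (SE 0.0652, adjusted p = 0.00271), and siSRF overlapped siC (-0.02, adjusted p = 0.848). MSN averaged 138, 109 and 149.8 FPKM and RDX 35.5, 43.05 and 34.3 FPKM. Limma-trend called neither against siC, limma-voom called MSN lower and RDX higher in siIGF2BP1 (adjusted p = 4.26e-06 and 0.000819), and all 3 were called in the direct comparison, EZR and MSN lower in siIGF2BP1 (-0.57 and -0.46) and RDX higher (0.33). No membrane linker was called upon SRF depletion, where the log2 differences ran from -0.05 to 0.12. Genes that overlap RDX held 633 reads on average beside its 1868, so its reads are less certain. The siIGF2BP1 call of EZR was lost without siIGF2BP1 replicates 2 or 3 or siC replicates 1 or 2 (adjusted p up to 0.0181), and the direct call of RDX was lost without siIGF2BP1 replicate 2 or siSRF replicates 2 or 3 (adjusted p up to 0.0161).

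**Figure D3:**
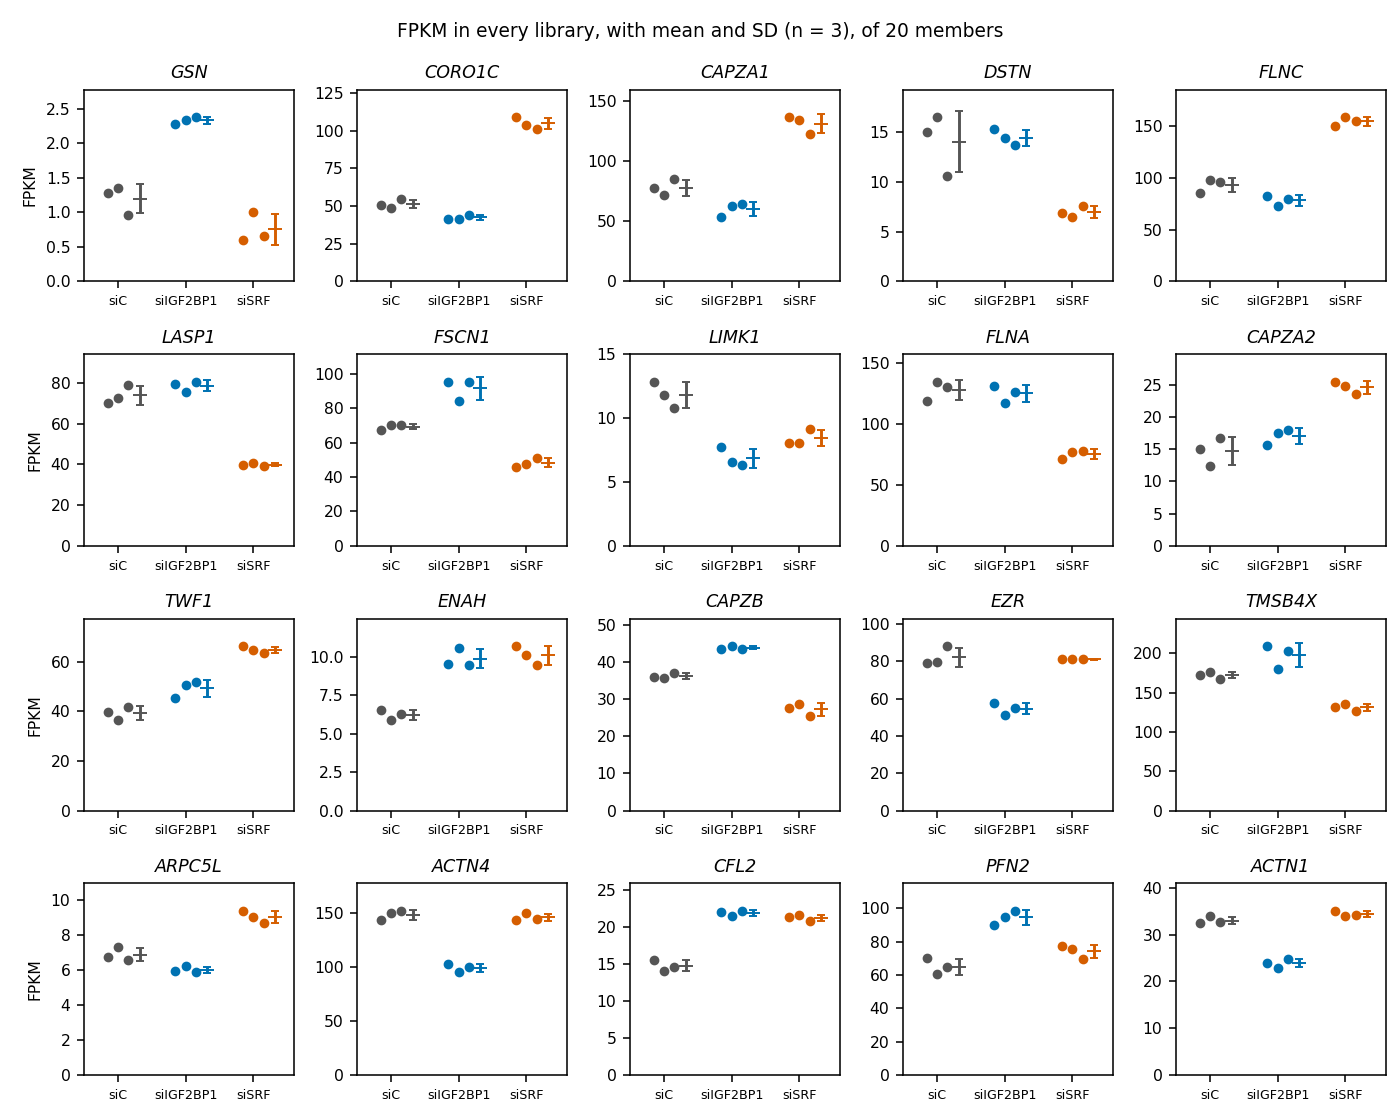
FPKM of the 20 members with the largest log2 differences, each point 1 library, with the mean and SD of the 3 libraries beside them (siC grey, siIGF2BP1 blue, siSRF orange, axes from 0). The siSRF libraries stand above all others for CORO1C, CAPZA1, CAPZA2, FLNC, TWF1 and ARPC5L and below all others for LASP1, FLNA, DSTN, TMSB4X, FSCN1 and CAPZB.

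Within families of related members the shares of single members differed between conditions. A share of the family's summed FPKM is not affected by the scaling between libraries, and errors are SD over 3 libraries. FLNA held 57.9% ± 0.224 of the summed FLNA and FLNC RNA in siC, 61.5% ± 0.282 in siIGF2BP1 and 32.8% ± 0.695 in siSRF. CORO1C held 69.5% ± 2.31, 68.4% ± 1.22 and 85.6% ± 0.841 of the coronin 1B and 1C RNA. Among CFL1, CFL2 and DSTN, the share of CFL2 was 6.74% ± 0.489 in siC, 11.9% ± 0.858 in siIGF2BP1 and 11.5% ± 0.15 in siSRF, above siC in every library of both knockdowns. DSTN held 6.35% ± 1.1, 7.85% ± 0.536 and 3.79% ± 0.408.

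Among VASP, ENAH and EVL, ENAH held 16.2% ± 1.15 in siC, 29% ± 3.03 in siIGF2BP1 and 26.8% ± 1.08 in siSRF. The share of PFN2 among the profilins was 23.1% ± 2.26, 35.8% ± 3.7 and 24.9% ± 1.41, with siC and siSRF overlapping. RDX held 13.9% ± 0.735, 20.8% ± 1.37 and 12.9% ± 0.464 of the membrane linkers. CAPZA2 held 15.9% ± 0.914, 22.1% ± 0.428 and 15.8% ± 0.261 of the alpha subunits, and the siSRF range lay within that of siC. The shares of DIAPH1 (83.8% ± 1.61, 83.9% ± 0.64 and 83.4% ± 0.589) and of ACTN4 (81.9% ± 0.441, 80.6% ± 0.479 and 81% ± 0.587) changed less. Where the libraries of 2 conditions separate, the two-sided exact permutation test gives p = 0.1, its smallest value, for each of these shares.

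**Figure D4:**
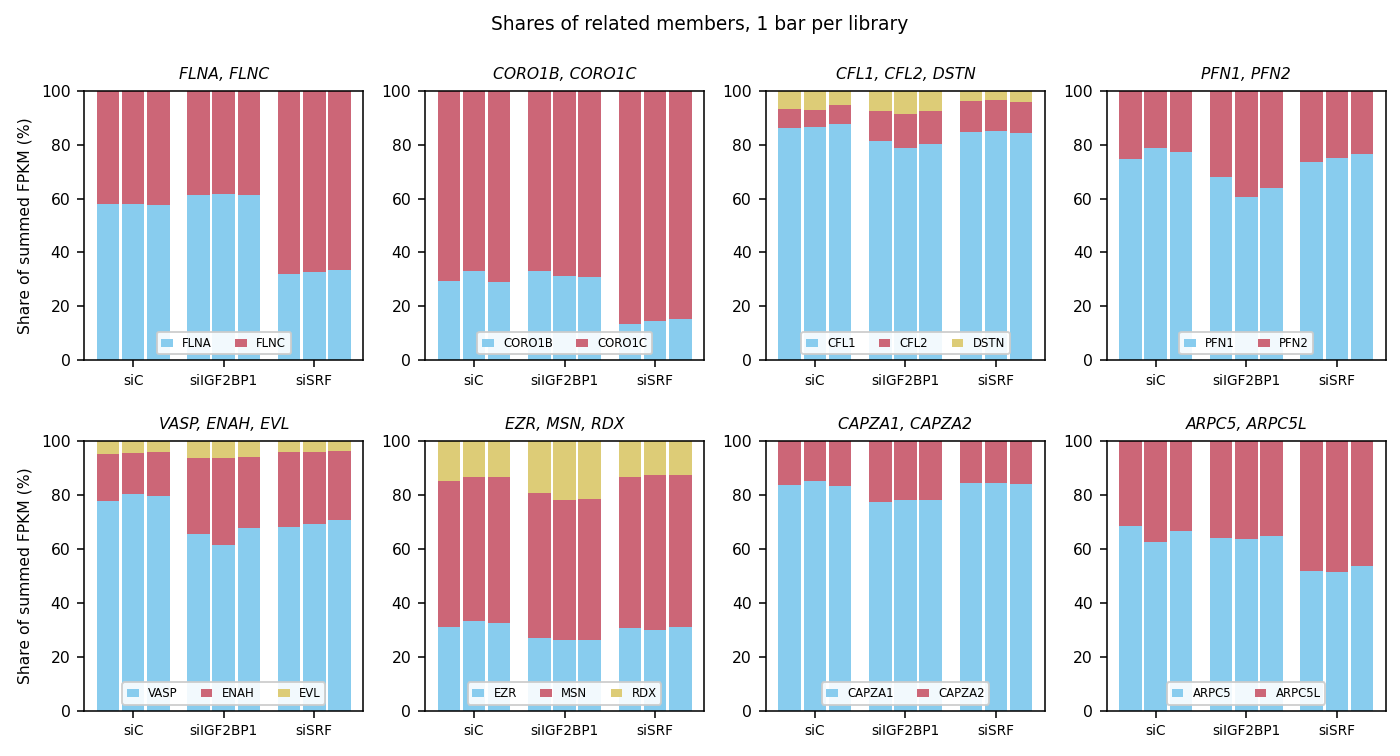
Share (%) of the summed FPKM of a family held by each related member, with 1 bar per library and 3 bars per condition, for 8 families of members. FLNA drops from 57.9% ± 0.224 in siC to 32.8% ± 0.695 in siSRF, and the CFL2 and ENAH segments are larger in both knockdowns than in siC.

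Of 70 other genes of actin dynamics that are no members, 57 were tested upon IGF2BP1 depletion, of which 5 fell and 7 rose, 8.77% and 12.3% beside 5.91% and 5.52% of all protein-coding genes. Upon SRF depletion 56 were tested, of which 5 fell and 5 rose, 8.93% and 8.93% beside 8.67% and 11.1%, so these shares were near or below the background. The direct comparison called 10 lower and 12 higher in siIGF2BP1, 17.9% and 21.4% beside 18.3% and 13.7%. In siIGF2BP1 the formin DAAM1 had the largest called difference, from 1.40, 1.33 and 1.38 FPKM in siC to 3.73, 4.17 and 3.76 FPKM, a log2 rise of 1.44 (SE 0.114, adjusted p = 0.000918). CORO2B, another coronin, followed at -1.20 (SE 0.124, adjusted p = 0.0021) and supervillin (SVIL) at 0.88 (SE 0.0517, adjusted p = 0.000391). In siSRF it was NEXN, a filament-binding protein of muscle, which went from 2.15, 2.52 and 2.71 FPKM in siC to 6.79, 6.95 and 7.31 FPKM, a log2 rise of 1.48 (SE 0.107, adjusted p = 0.000516). ARPIN, an inhibitor of Arp2/3, was at -0.98 (SE 0.125, adjusted p = 0.00298) and the formin INF2 at -0.77 (SE 0.0588, adjusted p = 0.000604). SVIL rose in siIGF2BP1 and fell in siSRF (-0.53, adjusted p = 0.00157), as FSCN1 and CAPZB did among the members.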

How the data were processed

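Total RNA of 9 ES-2 libraries was depleted of ribosomal RNA, made into directional libraries and sequenced on an Illumina NextSeq instrument. The authors clipped the reads (Cutadapt 1.14), aligned them to GRCh38 (HISAT2 2.1.0, SAMtools 1.5), counted them on Ensembl genes (featureCounts 1.5.3) and applied TMM (edgeR 3.18.1). They deposited FPKM values per library in 2 tables, with the same siC values in both. The authors' fold changes, p-values and FDR were not used. Whole reads were recovered from the FPKM values (within 0.01 read) for 100% of positive values, giving depths of 6421764 to 9416175 reads per library, with a median of 7377934.

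Conditions came from the sample labels. For each comparison, limma 3.58.1 (lmFit, eBayes with a trend, R 4.3.3) was run on log2(FPKM + 0.1) of its 6 libraries for genes averaging 0.1 FPKM or more, with Benjamini-Hochberg adjustment across every gene in the fit. The members and gene lists were chosen with earlier results of these data known. Because more than 25 members were called, the 20 with the largest absolute log2 difference in any comparison are given library by library and the others by means or ranges; of the other actin genes, the 3 with the largest called difference per knockdown are named. A few items are not reported here. Alternatives were other pseudocounts, filters and thresholds, median-ratio rescaling, limma-voom, all 9 libraries in one fit, a replicate block, cubic trends along GC content and gene length taken out, and leaving out each library.

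On simulated reads of siSRF against siC with 200 changed genes of 21691 tested, limma-trend called 116 with 25 false calls, and limma-voom called 199 with 2. The simulated spread was a fixed setting, not estimated from these libraries. Every changed gene was well counted and changed by the same fold, with recovered median log2 differences of 0.988 and 0.997. The numbers called thus do not carry over to the smaller differences of most members. None of the false calls of limma-trend had 10 or more reads on average, and all were of genes of at most 136 bases. After this was seen, the background shares were given over protein-coding genes and the acceptance of the simulation was set on genes of 10 or more reads. Coordinates are from GENCODE 44 on GRCh38, a later annotation than the one counted on. In it 31 of the 46 members overlap another gene of the tables, and 42 pseudogenes are named after 13 members, with reads of at most 6.95% of the member's.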

Additional observations from a re-analysis of the deposited data

Results flagged for a closer look

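CAPZB and FSCN1 were called in opposite directions against siC upon the 2 depletions. The direct difference of the knockdowns was called as well. It equals the gap between the 2 differences from siC, so its call is no separate support. For CAPZB, the beta subunit of capping protein, the log2 difference was 0.27 in siIGF2BP1 and -0.41 in siSRF, and siIGF2BP1 exceeded siSRF by 0.69 (SE 0.0513, adjusted p = 0.000212). FSCN1, which bundles filaments in filopodia, was at 0.40 and -0.53, and siIGF2BP1 exceeded siSRF by 0.92 (SE 0.0662, adjusted p = 0.000182). The direct differences held without each library in turn, while the differences from siC share their siC libraries. Of the 6 fits without 1 library, 0 called CAPZB in siIGF2BP1 and 1 called it in siSRF. For FSCN1, 1 of the 6 called it in siIGF2BP1 and all 6 in siSRF. A replicate block ended both calls of CAPZB and that of FSCN1 in siIGF2BP1.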

How the results depend on the processing

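Every called value of a member kept its sign under all settings run. Counts of members moved by more than 1.5 times as follows, and the cause was not tested unless the setting itself uses fewer libraries or another threshold. In siIGF2BP1 against siC (7 lower, 5 higher), limma-voom called 16 and 9, all 9 libraries 11 lower, and a threshold of 0.05 gave 14 and 8. In siSRF against siC (8 and 8), limma-voom called 15 lower, no filter 5 lower, a filter of 1 FPKM 13 lower (GSN was not tested there), and a threshold of 0.05 gave 15 lower. For the other actin genes, limma-voom called 10 lower and 11 higher in siIGF2BP1 (5 and 7) and 10 and 10 in siSRF (5 and 5), and a threshold of 0.05 gave 9 and 11, and 13 and 9. Without 1 library, members numbered 1 to 3 lower and 0 to 2 higher in siIGF2BP1, 3 to 6 and 3 to 7 in siSRF, and 11 to 13 and 6 to 9 in the direct comparison. The other genes numbered 1 to 3 and 4 to 6, 1 to 3 and 2 to 4, and 6 to 7 and 6 to 7. Shares of all protein-coding genes are given only for limma-trend on 6 libraries and for limma-voom. Counts under the other settings thus do not set the members apart from all genes. Without the filter on low values, the calls of FSCN1 and VASP in siIGF2BP1, of DSTN, CFL1, WDR1 and ARPC5L in siSRF and of WDR1 and ARPC2 in the direct comparison were lost. Median-ratio rescaling ended those of ARPC5L in siSRF and ARPC2 in the direct comparison, all 9 libraries those of CFL1 in siSRF and WASF2 in the direct comparison, and the GC and length fit those of CFL1 and WDR1 in siSRF and of WDR1 in the direct comparison.

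Replicate numbers did not pair the libraries: the mean correlation of same-numbered deviations was -0.00383 for siIGF2BP1 and siC, 0.00081 for siSRF and siC and -0.0276 for the knockdowns. With a replicate block, which leaves fewer degrees of freedom, 0 members were lower and 0 higher in siIGF2BP1 against siC by limma-trend, 3 and 3 in siSRF, and 8 and 5 in the direct comparison, and 0 and 0, 1 and 2, and 3 and 5 of the other genes. The share of all protein-coding genes called with the block is not given here.

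Signs turned only for values that were not called. Free of the GC and length trends, siIGF2BP1 against siC became 0.058 for FLNA, 0.013 for WDR1, 0.032 for LIMK2 and -0.01 for ACTR2. The siSRF values became 0.197 for ACTN4, 0.088 for TMSB10, -0.023 for ACTR3, -0.092 for DIAPH3, 0.066 for EVL and 0.047 for EZR, and that of DIAPH1 -0.017 after median-ratio rescaling. The direct differences became -0.017 for ARPC1B and 0.031 for WASF1. Without 1 library, siIGF2BP1 values spanned zero for FLNA (-0.087 to 0.009), WDR1 (-0.049 to 0.027), DSTN (-0.124 to 0.192), LIMK2 (-0.162 to 0.089), TMSB10 (-0.127 to 0.022), ARPC3 (-0.077 to 0.05) and ACTR2 (-0.003 to 0.125). In siSRF they did so for PFN1 (-0.003 to 0.072), TMSB10 (-0.104 to 0.045), ACTR2 (-0.114 to 0.015), DIAPH1 (-0.013 to 0.022), DIAPH3 (-0.025 to 0.114) and EZR (-0.046 to 0.033), and in the direct comparison for TMSB10 (-0.075 to 0.032), ARPC1B (-0.011 to 0.13), WASF1 (-0.062 to 0.061) and ENAH (-0.083 to 0.01). At 47 reads in the lowest case, GSN is the member that depth limits most.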
